A study of Homo sapiens with 27 samples.

Results

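The comparison sets the end state of cells that made SNAIL1 against the end state of cells that made LEF1, each measured from its own start. The cells were LS174T, a human colorectal carcinoma line with goblet-like features and a stabilising mutation of beta-catenin. All arrays of the series came from this line with the pN1 background, and a doxycycline-inducible transgene had been added for mouse Snail1 with an HA tag (the SNAI1 line) or mouse Lef1 with an HA tag (the LEF1 line). Of the 27 arrays, 9 enter here: the SNAI1 line at 0 h (2 arrays), 72 h (1) and 96 h (2), and the LEF1 line at 0 h (2) and 72 h (2). Doxycycline was used at 0.1 µg/ml and was renewed after 48 h, and the 0 h arrays precede it. No 24 h array and no array of the control line entered the fit. Separate cultures are not stated for the replicates, so the p-values measure the spread between these arrays, which may be technical.

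SNAIL1 is a zinc finger repressor that binds E-box motifs and is known for silencing E-cadherin and other epithelial genes during epithelial-mesenchymal transition. LEF1 is one of the TCF/LEF factors, which bind Wnt target genes and recruit beta-catenin to them. Many Wnt targets are themselves brakes on the pathway, such as AXIN2, NOTUM and the DKK proteins, and in the intestine Wnt signalling maintains the crypt while Notch and ATOH1 set the secretory lineages. The study's title places beta-catenin and LEF1 downstream of SNAIL1, and the question addressed here is how much of the SNAI1 line's end state the LEF1 line shares.

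The 5 arrays of the SNAI1 line had 18636 to 19683 detected probes and the 4 arrays of the LEF1 line 14768 to 15907. They differ in the form of the detection p-value, continuous in the first and stepped in the second, so the line and the array set cannot be told apart, and each change below is therefore taken within a line. Wherever levels of the 2 lines are set side by side below, the comparison runs across the array sets. Levels are normalized log2 intensities and changes are differences of them, so that 1 unit is a 2-fold change. The probe for human SNAI1 was detected on 0 of the 9 arrays (4.27 to 4.67), as was that for ZEB1 (4.20 to 4.76). The transgene is of mouse sequence, so the SNAI1 probe does not check the label. The epithelial and intestinal genes EPCAM, CDH1 and MUC2 were detected on all 4 arrays at 0 h. Of 16 markers of fibroblasts, endothelium, leukocytes and neurons, 6 passed the filter on dim probes and 0 passed the 5% threshold of limma in either line or in the difference of the lines, where CD68, DCN, LUM, LYZ, MAP2 and VWF changed by -0.60 to 0.86.

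From 0 h to the end state, 4922 of 11997 genes (41% of those tested) passed 5% in the SNAI1 line, 2578 higher and 2344 lower. In the LEF1 line 1724 genes (14.4%) passed, 998 higher and 726 lower. Higher calls were 21.5% and 8.32% of all genes in the 2 lines, and lower calls 19.5% and 6.05%. The counts within gene lists below are to be read against these shares where they come from this fit. Counts given for another setting stand against that setting's own totals, listed in the closing section. The difference of the changes, SNAI1 minus LEF1, passed for 1612 genes (13.4%), of which 768 were positive (6.4%) and 844 negative (7.04%). Median standard errors were 0.212, 0.232 and 0.314 on the log2 scale. Past 5% in both lines were 1235 genes, which is 71.6% of the LEF1 line's calls and 25.1% of the SNAI1 line's calls, and 89.5% of them moved in the same direction.

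Genes were placed in classes by all 3 tests. Shared genes passed in both lines with 1 direction, and there were 1105 (9.21% of all genes), 654 higher (5.45%) and 451 lower (3.76%). SNAI1-only genes passed in the SNAI1 line and in the difference but not in the LEF1 line, and there were 1061 (8.84%), 534 higher (4.45%) and 527 lower (4.39%). LEF1-only genes, defined in the same way, numbered 184 (1.53%), 115 higher (0.959%) and 69 lower (0.575%). Opposite genes passed in both lines with opposite directions, and there were 130 (1.08%), of which 60 were higher (0.5%) and 70 lower (0.583%) in the SNAI1 line. A further 2626 genes passed in the SNAI1 line and 305 in the LEF1 line without a difference that passed, so they are assigned to neither line alone. Over all genes the 2 changes correlated at r = 0.496, given as a description across genes, which are not independent replicates.

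**Figure D1:**
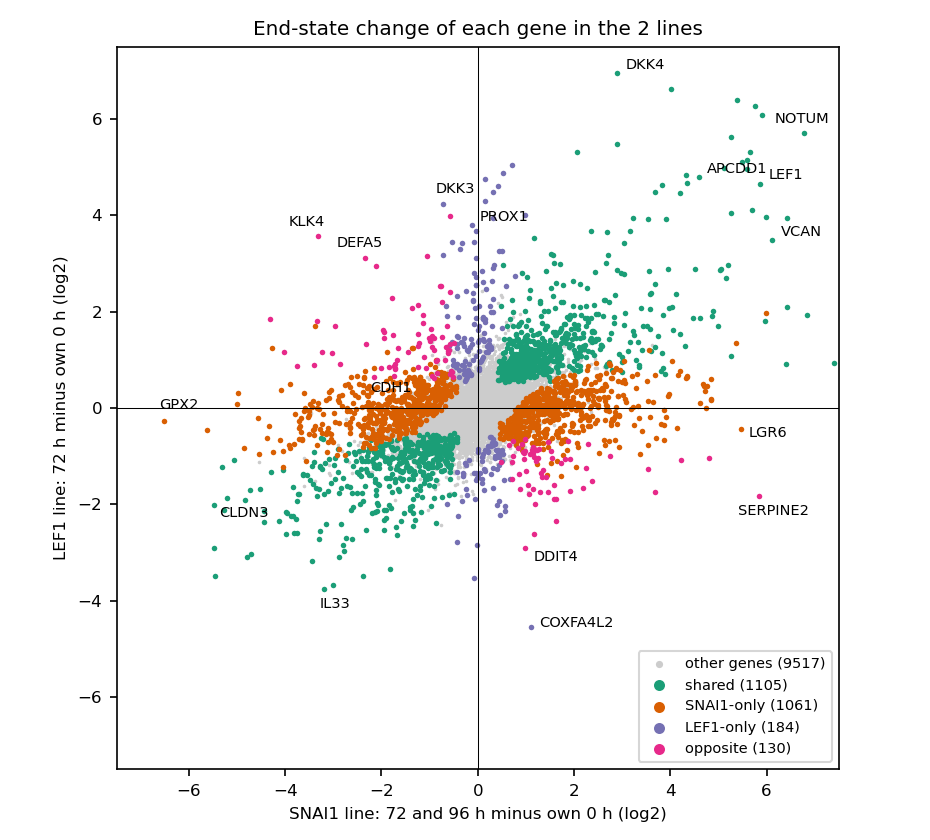
Each point is 1 of the 11997 genes, with the SNAI1 line's change (72 and 96 h minus 0 h, log2) on the horizontal axis and the LEF1 line's change (72 h minus 0 h, log2) on the vertical axis, coloured by class. The 1105 shared genes fill the upper right and lower left, the 1061 SNAI1-only genes lie along the horizontal axis, the 184 LEF1-only genes along the vertical axis and the 130 opposite genes at the upper left and lower right.

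Membership of the classes is a statement about tests at this precision. For 749 of the 1061 SNAI1-only genes the 95% interval of the LEF1 line's change lay within 2-fold in either direction, and for 152 of the 184 LEF1-only genes that of the SNAI1 line's change did. Among the shared genes the difference of the changes passed for 201, with 177 larger in the SNAI1 line and 24 larger in the LEF1 line. The control line offers 1 array at 72 h and 1 at 96 h, set here against its 0 h array of the same set, without replicates. It moved at least 2-fold in the direction of the class for 25 of the 1105 shared genes (2.26%) and 136 of the 1061 SNAI1-only genes (12.8%). The same held for 1 of the 184 LEF1-only genes (0.543%) and 26 of the 130 opposite genes (20%). Among the 6550 genes that passed no test it held for 149 (2.27%). For opposite genes and those 6550, the direction is that of the SNAI1 line's change. Against the direction, it moved at least 2-fold for 59 shared, 15 SNAI1-only, 30 LEF1-only and 1 opposite gene, and for 94 of the 6550. Counts with the control line's change subtracted close the account.

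Promoters are shown here because both factors bind DNA in a known way. RefSeq promoters (GRCh38.p14, 250 bases before to 50 after the gene start) were matched by symbol for 9650 of the 11997 genes. The TCF/LEF core CTTTGA and the Snail-type E-box CAGGTG were searched on both strands. These letters cannot overlap each other on either strand. DKK1, a shared gene on the plus strand at chr10:52314031-52314330, holds the core in both orientations, beginning 149 and 95 bases before the gene start. CLDN3, shared and lower, lies on the minus strand at chr7:73770221-73770520 and holds an E-box that begins 36 bases after the start. SLC27A2, SNAI1-only and lower, lies on the plus strand at chr15:50181946-50182245 and holds E-boxes beginning 40 bases before and 38 bases after the start. KLK4, lower in the SNAI1 line and higher in the LEF1 line, lies on the minus strand at chr19:50910689-50910988 and holds an E-box that begins 14 bases before the start. The sequences run 5′ to 3′ on the gene's strand, with the matches in capitals.
DKK1: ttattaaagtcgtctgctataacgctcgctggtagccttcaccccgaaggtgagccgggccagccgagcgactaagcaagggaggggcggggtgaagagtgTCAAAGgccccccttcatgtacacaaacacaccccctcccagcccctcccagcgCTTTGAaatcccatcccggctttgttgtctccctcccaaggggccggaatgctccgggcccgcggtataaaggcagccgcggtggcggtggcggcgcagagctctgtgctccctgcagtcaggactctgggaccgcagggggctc
CLDN3: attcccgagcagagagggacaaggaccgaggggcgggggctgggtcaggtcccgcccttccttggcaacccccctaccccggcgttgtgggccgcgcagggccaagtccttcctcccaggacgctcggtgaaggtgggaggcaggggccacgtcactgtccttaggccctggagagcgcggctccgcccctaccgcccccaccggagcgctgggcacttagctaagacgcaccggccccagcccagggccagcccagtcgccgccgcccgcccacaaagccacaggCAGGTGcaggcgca
SLC27A2: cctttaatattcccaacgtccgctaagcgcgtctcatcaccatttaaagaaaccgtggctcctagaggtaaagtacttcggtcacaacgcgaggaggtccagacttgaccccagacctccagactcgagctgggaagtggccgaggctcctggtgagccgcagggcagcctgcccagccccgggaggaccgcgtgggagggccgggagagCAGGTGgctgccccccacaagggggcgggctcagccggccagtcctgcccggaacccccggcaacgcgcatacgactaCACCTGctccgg
KLK4: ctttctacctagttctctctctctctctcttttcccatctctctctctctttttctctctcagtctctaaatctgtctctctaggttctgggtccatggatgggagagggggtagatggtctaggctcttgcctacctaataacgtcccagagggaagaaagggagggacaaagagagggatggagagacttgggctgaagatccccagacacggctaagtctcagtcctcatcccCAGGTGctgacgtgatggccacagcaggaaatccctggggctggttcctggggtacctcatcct

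An E-box lay in 1782 of the 9650 promoters (18.5%). The share was 138 of 410 (33.7%) among SNAI1-only lower genes, 20 of 50 (40%) among genes lower in the SNAI1 line and higher in the LEF1 line, and 84 of 345 (24.3%) among shared lower genes. Among SNAI1-only higher genes it was 58 of 442 (13.1%). LEF1-only higher genes also had a share above the background, at 26 of 88 (29.5%). They did not pass in the SNAI1 line, which does not show that they did not fall there. Of all 184 LEF1-only genes, 115 had opposite signs in the 2 lines. The TCF/LEF core lay in 857 of the 9650 promoters (8.88%) and in 50 of 538 (9.29%) of the shared higher genes, close to the background. By class and direction its share ran from 6.0% (3 of 50 genes lower in the SNAI1 line and higher in the LEF1 line) to 14.5% (9 of 62 LEF1-only lower genes). Shared lower genes had it in 40 of 345 (11.6%) and LEF1-only higher genes in 8 of 88 (9.09%). Base composition was not matched between the classes, the shares carry no test, and a match is a description of the letters in this window. CDH1 has no entry in the table.

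Of 16 secreted and intracellular Wnt feedback genes tested, 7 rose in the SNAI1 line and 0 fell, while 9 rose and 1 fell in the LEF1 line, where 21.5% and 8.32% of all genes rose. All 7 that rose in the SNAI1 line rose in the LEF1 line too, namely NOTUM, APCDD1, NKD1, DKK1, DKK4, AXIN2 and ZNRF3. The list's median change was 0.78 in the SNAI1 line and 1.08 in the LEF1 line, against 0.06 and 0.03 over all genes, and -0.03 in the control line. None of the 16 was SNAI1-only, and DKK3 was LEF1-only. With the control line's change subtracted, 5 rose in the SNAI1 line, 6 in the LEF1 line and 4 in both.

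NOTUM, a secreted enzyme that inactivates Wnt ligands, read 4.87 and 5.20 at 0 h, 11.61 at 72 h and 11.88 and 11.95 at 96 h in the SNAI1 line. In the LEF1 line it read 4.89 and 5.48 at 0 h and 10.59 and 11.19 at 72 h. All end-state arrays of both lines lay far above all 0 h arrays. The change was 6.78 ± 0.25 (SE, adjusted p = 1.09e-06) in the SNAI1 line and 5.71 ± 0.27 (SE, adjusted p = 1.94e-05) in the LEF1 line, and the difference did not pass (1.06, 95% interval 0.22 to 1.91). Its second probe moved by 5.76 and 5.28.

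APCDD1, a membrane-bound Wnt inhibitor, read 9.47 and 8.66 at 0 h, 13.73 at 72 h and 13.48 and 13.75 at 96 h in the SNAI1 line. APCDD1 values in the LEF1 line were 8.69 and 8.98 at 0 h and 13.54 and 13.72 at 72 h. Both lines started and ended at close levels, read across the array sets. The changes were 4.59 ± 0.24 (SE, adjusted p = 3.42e-06) and 4.80 ± 0.27 (SE, adjusted p = 2.76e-05), with a difference of -0.21 (95% interval -1.02 to 0.61). AXIN2, the scaffold of the beta-catenin destruction complex, started high and gained less, with 1.72 ± 0.15 (SE, adjusted p = 4.31e-05) and 1.36 ± 0.16 (SE, adjusted p = 0.00124) and a difference of 0.37 (95% interval -0.13 to 0.86).

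Among the DKK family of Wnt receptor antagonists, DKK1, whose promoter is printed above, read 4.36 and 4.37 at 0 h, 9.24 at 72 h and 8.65 and 8.74 at 96 h in the SNAI1 line. DKK1 values in the LEF1 line were 4.46 and 4.45 at 0 h and 7.44 and 7.26 at 72 h. It was not above background at 0 h in either line, so the rise was at least 19.8-fold (adjusted p = 1.75e-06) and at least 3.44-fold (adjusted p = 0.000124), and the difference passed with the SNAI1 line higher (adjusted p = 0.00732). These 2 bounds rest on unequal floors, and the fitted changes were 4.5 and 2.9. DKK4 read 9.99 and 8.34 at 0 h, 11.52 at 72 h and 11.79 and 12.87 at 96 h in the SNAI1 line. DKK4 values in the LEF1 line were 6.83 and 5.58 at 0 h and 13.57 and 12.77 at 72 h. It rose more in the LEF1 line, by 6.97 ± 0.65 (SE, adjusted p = 0.000346) against 2.90 ± 0.59 (SE, adjusted p = 0.00455), with a difference of -4.07 ± 0.88 (SE, adjusted p = 0.0166), and its 0 h levels also differed between the lines. That difference lost its call without SNAI1 0 h replicate 1 (-3.25, adjusted p = 0.0595), LEF1 0 h replicate 2 (-3.45, adjusted p = 0.0566) or LEF1 72 h replicate 1 (-3.67, adjusted p = 0.0581). DKK3, a divergent member, read 4.38 and 4.59 at 0 h, 5.10 at 72 h and 4.33 and 4.49 at 96 h in the SNAI1 line. DKK3 values in the LEF1 line were 4.38 and 4.25 at 0 h and 8.51 and 8.71 at 72 h. Only the 2 LEF1 line arrays at 72 h stood above background, a rise of at least 8.26-fold (adjusted p = 3.87e-05), and both DKK3 probes passed in the difference.

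LEF1 itself rose in both lines. Its probe read 6.31 and 5.91 at 0 h, 11.98 at 72 h and 11.98 and 11.99 at 96 h in the SNAI1 line and 5.19 and 4.96 at 0 h and 9.97 and 9.50 at 72 h in the LEF1 line, and the end-state arrays of the SNAI1 line were the highest of all. The change in the SNAI1 line was 5.87 ± 0.20 (SE, adjusted p = 7.72e-07). In the LEF1 line, where it was not above background at 0 h, the rise was at least 18.1-fold (adjusted p = 1.94e-05). The difference passed for this probe (1.21 ± 0.29 (SE, adjusted p = 0.027)) but not for the second LEF1 probe (1.05, adjusted p = 0.146). It also lost its call without SNAI1 0 h replicate 2 (1.01), either SNAI1 line 96 h array (1.21 each), LEF1 0 h replicate 1 (1.09) or LEF1 72 h replicate 2 (0.97), at adjusted p from 0.0603 to 0.11. Whether these probes also read the mouse Lef1 transgene is not given in the sources used here, so the LEF1 line's rise cannot be assigned to the endogenous gene.

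Among 24 further Wnt targets and TCF/LEF factors, 13 rose and 6 fell in the SNAI1 line, where 21.5% and 19.5% of all genes did. In the LEF1 line 9 rose and 1 fell, where 8.32% and 6.05% did. The falls were near the share of all genes. The classes held 9 shared, 5 SNAI1-only and 1 LEF1-only gene, against 9.21%, 8.84% and 1.53% of all genes. The control line's median change was -0.02. SP5, a Wnt-induced repressor, read 5.21 and 4.42 at 0 h, 9.45 at 72 h and 8.83 and 9.20 at 96 h in the SNAI1 line. SP5 values in the LEF1 line were 4.51 and 4.27 at 0 h and 8.99 and 9.12 at 72 h. SP5 showed a change of 4.35 in the SNAI1 line (adjusted p = 6.76e-06) and a rise of at least 11.2-fold in the LEF1 line (adjusted p = 5.13e-05). TNFRSF19, a crypt receptor, rose by 2.97 and 2.82. MYC, the proliferation factor and textbook Wnt target, fell in both lines, from 11.71 and 11.73 at 0 h, 9.70 at 72 h and 10.08 and 10.23 at 96 h in the SNAI1 line and 11.60 and 11.58 at 0 h and 10.22 and 10.01 at 72 h in the LEF1 line, changing by -1.72 ± 0.18 (SE, adjusted p = 0.000145) and -1.47 ± 0.20 (SE, adjusted p = 0.00242).

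Of the same list, the 5 SNAI1-only members were the crypt genes LGR6, LGR5, ASCL2, EPHB3 and CD44. LGR6, an R-spondin receptor, read 5.09 and 4.31 at 0 h, 10.04 at 72 h and 10.17 and 10.29 at 96 h in the SNAI1 line. LGR6 values in the LEF1 line were 5.10 and 5.33 at 0 h and 4.99 and 4.58 at 72 h. It rose at least 40.3-fold in the SNAI1 line (adjusted p = 1.79e-06), and it was not above background in the LEF1 line at either time. LGR5, the related receptor of crypt base stem cells, fell, changing by -1.88 ± 0.26 (SE, adjusted p = 0.00055) against 0.19 ± 0.28 (SE, adjusted p = 0.715). ASCL2, a stem cell transcription factor, fell, changing by -1.36 against 0.61. EPHB3, a receptor that positions cells in the crypt, read 10.12 and 10.06 at 0 h, 5.86 at 72 h and 5.26 and 5.99 at 96 h in the SNAI1 line. EPHB3 values in the LEF1 line were 10.22 and 10.50 at 0 h and 9.48 and 10.00 at 72 h. All 3 end-state arrays of the SNAI1 line lay below all other arrays, with a change of -4.39 ± 0.25 (SE, adjusted p = 5e-06), a LEF1 line change of -0.62 ± 0.28 (SE, adjusted p = 0.176) and a difference of -3.77 ± 0.37 (SE, adjusted p = 0.000414). CD44, a surface glycoprotein and Wnt target, rose by 1.39 in the SNAI1 line against -0.45 in the LEF1 line.

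PROX1, a transcription factor induced by beta-catenin in colorectal tumours, went the other way. It read 6.66 and 6.22 at 0 h, 6.18 at 72 h and 6.43 and 6.32 at 96 h in the SNAI1 line. PROX1 values in the LEF1 line were 6.55 and 6.62 at 0 h and 10.34 and 10.44 at 72 h. The LEF1 line's 72 h arrays stood alone above the rest, with a rise of 3.80 ± 0.19 (SE, adjusted p = 1.97e-05) against -0.13 ± 0.18 (SE, adjusted p = 0.599) in the SNAI1 line and a difference of -3.93 ± 0.26 (SE, adjusted p = 8.19e-05). The control line moved by -0.25 at 72 h and -0.01 at 96 h.

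**Figure D2:**
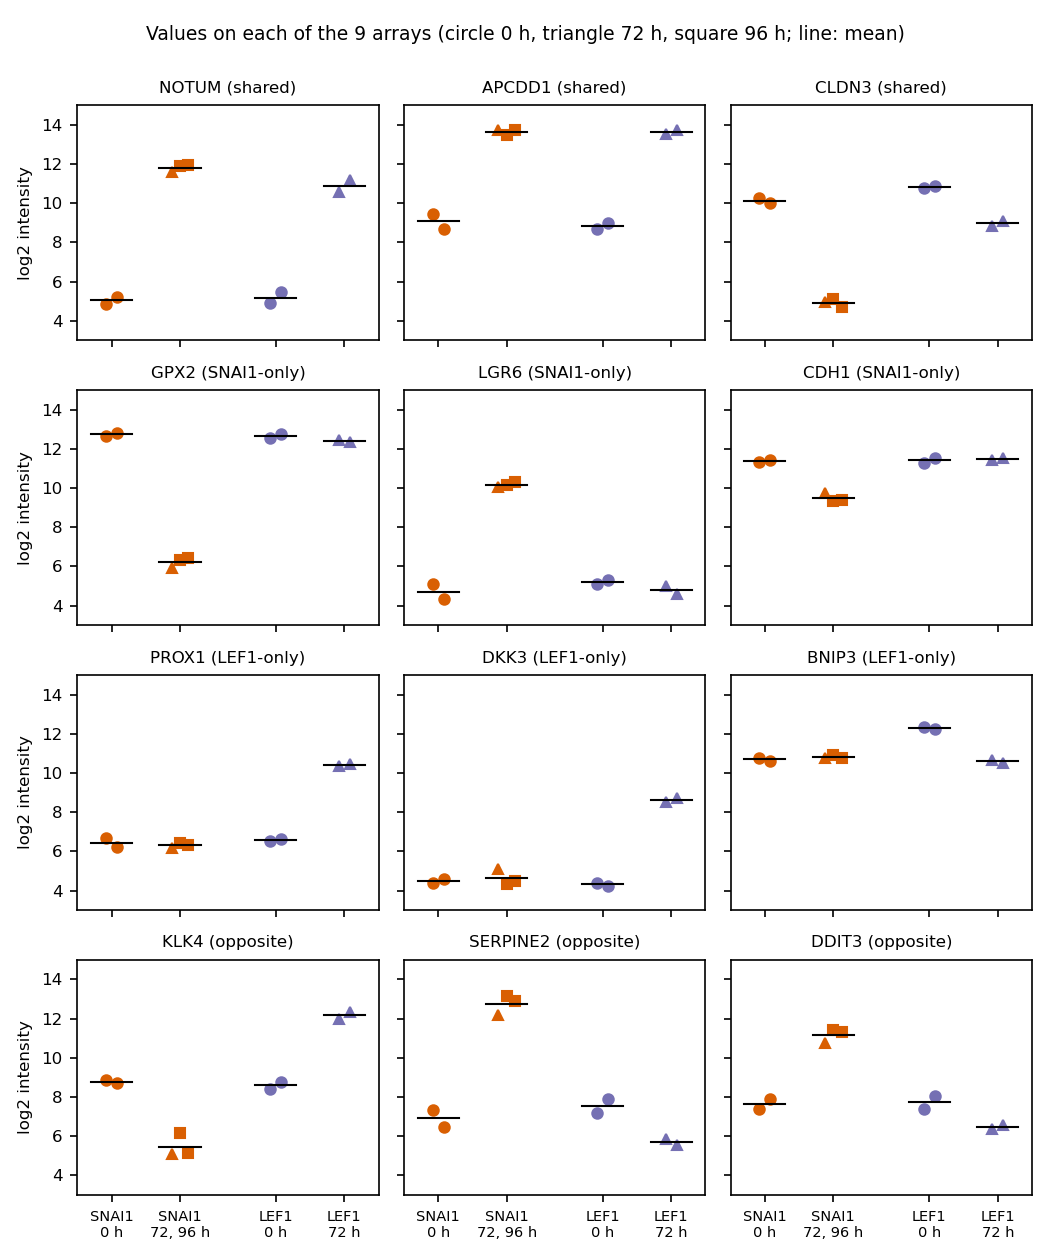
Each panel shows 1 gene on the 9 arrays, with log2 intensity on the vertical axis, the SNAI1 line in orange, the LEF1 line in purple, circles for 0 h, triangles for 72 h, squares for 96 h and a line at each group's mean. NOTUM, APCDD1 and CLDN3 move one way in both lines, GPX2, LGR6 and CDH1 move in the SNAI1 line, PROX1, DKK3 and BNIP3 in the LEF1 line, and KLK4, SERPINE2 and DDIT3 in opposite directions.

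By the smaller of the 2 changes, the leading shared higher genes were NOTUM, TRIM48, GRM5P1, TRIM51, FRG2B and TRIM49C. TRIM51 read 8.87 and 6.91 at 0 h, 13.34 at 72 h and 12.98 and 13.49 at 96 h in the SNAI1 line and 6.54 and 5.16 at 0 h and 12.66 and 11.85 at 72 h in the LEF1 line, and TRIM48 read 7.77 and 5.95 at 0 h, 12.90 at 72 h and 12.29 and 13.09 at 96 h in the SNAI1 line. TRIM48 values in the LEF1 line were 5.97 and 5.30 at 0 h and 12.26 and 11.16 at 72 h. Their changes were 5.38 and 6.41 for TRIM51 and 5.90 and 6.08 for TRIM48. GRM5P1 rose by 5.75 in the SNAI1 line (adjusted p = 4.53e-05) and at least 47.3-fold in the LEF1 line (adjusted p = 0.000275). TRIM genes of this primate cluster and FRG2B have near-identical copies, so which copy the probes read is uncertain. The second FRG2B probe rose by 2.61 in the SNAI1 line and did not pass in the LEF1 line (0.96, adjusted p = 0.185).

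The shared fall held mucosal and goblet cell genes. Of 21 goblet and secretory markers tested, 17 fell in the SNAI1 line and 8 in the LEF1 line, where 19.5% and 6.05% of all genes fell. Of these markers 0 rose in either line. The median changes were -2.59 and -0.97, against 0.19 in the control line. The 8 shared members were AGR3, ATOH1, CLCA1, MUC13, MUC2, REG1A, SPDEF and ST6GALNAC1. With the 72 h array as the SNAI1 line's only end array, 11 fell in each line and 10 were shared.

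ATOH1, the factor that commits cells to the secretory lineage, read 7.05 and 7.33 at 0 h, 4.26 at 72 h and 4.33 and 4.28 at 96 h in the SNAI1 line. ATOH1 values in the LEF1 line were 6.17 and 5.52 at 0 h and 4.56 and 4.49 at 72 h. It was not above background at the end in either line, so the fall was at least 6.16-fold (adjusted p = 1.59e-05) and at least 1.25-fold (adjusted p = 0.00668), and the control line moved by -0.59 at 72 h and -1.31 at 96 h. SPDEF, which drives goblet maturation, fell at least 5.67-fold in the SNAI1 line (adjusted p = 1.61e-05) and changed by -2.06 ± 0.20 (SE, adjusted p = 0.000442) in the LEF1 line. MUC2, the main secreted mucin, fell, changing by -1.21 and -1.10. ST6GALNAC1, which sialylates mucins, fell in both lines but more in the SNAI1 line, with -4.73 ± 0.21 (SE, adjusted p = 1.75e-06) against -1.71 ± 0.23 (SE, adjusted p = 0.00198) and a difference of -3.02 ± 0.30 (SE, adjusted p = 0.000437). DLL1, the Notch ligand of secretory precursors, was SNAI1-only, with -3.09 ± 0.18 (SE, adjusted p = 5.32e-06) against -0.51 ± 0.20 (SE, adjusted p = 0.123).

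PIGR, the receptor that carries IgA across the epithelium, read 10.44 and 10.83 at 0 h, 5.81 at 72 h and 4.53 and 5.21 at 96 h in the SNAI1 line. PIGR values in the LEF1 line were 10.23 and 11.13 at 0 h and 6.58 and 7.81 at 72 h. It fell, changing by -5.45 (adjusted p = 4.1e-05) and -3.49 (adjusted p = 0.00311), while the control line moved by 0.33 at 72 h and 1.10 at 96 h. IL33, an alarmin cytokine of epithelia, read 9.96 and 10.18 at 0 h, 7.58 at 72 h and 6.91 and 6.15 at 96 h in the SNAI1 line. IL33 values in the LEF1 line were 10.03 and 10.02 at 0 h and 6.23 and 6.28 at 72 h. Its change was -3.19 ± 0.34 (SE, adjusted p = 0.000146) in the SNAI1 line and -3.77 ± 0.38 (SE, adjusted p = 0.000487) in the LEF1 line, and the control line rose with time (1.08 at 72 h and 1.91 at 96 h). GCNT3, a mucin core glycosyltransferase, fell, changing by -4.70 and -3.04, FXYD3, a regulator of the sodium pump, by -3.45 and -3.19, and GPR15LG, a mucosal chemoattractant, by -4.79 and -3.10. REG1A, a secreted lectin, fell, changing by -3.01 and -3.67, and the control line also read lower (-1.73 at 72 h and -2.40 at 96 h).

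Of 14 enterocyte markers, 8 fell and 1 rose in the SNAI1 line, where 19.5% and 21.5% of all genes did. In the LEF1 line 6 fell and 2 rose, where 6.05% and 8.32% did. VIL1, the actin bundler of the brush border, read 9.13 and 9.03 at 0 h, 4.92 at 72 h and 4.30 and 4.46 at 96 h in the SNAI1 line. VIL1 values in the LEF1 line were 8.87 and 9.14 at 0 h and 7.43 and 7.22 at 72 h. Its fall was at least 21.2-fold in the SNAI1 line (adjusted p = 2.06e-06) and -1.68 ± 0.23 (SE, adjusted p = 0.00234) in the LEF1 line, and the difference passed (adjusted p = 0.000602). PLS1, another brush border bundler, fell in the SNAI1 line alone, changing by -3.12 ± 0.18 (SE, adjusted p = 5.52e-06) against -0.41 ± 0.20 (SE, adjusted p = 0.216). FGF19, the gut hormone that restrains bile acid synthesis, rose by 6.00 in the SNAI1 line (adjusted p = 3.42e-06) and at least 9.87-fold in the LEF1 line (adjusted p = 0.000278). CA4, a carbonic anhydrase, was LEF1-only, with a rise of at least 2.13-fold (adjusted p = 0.000531).

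Of 24 epithelial junction genes tested, 14 fell and 6 rose in the SNAI1 line, where 19.5% and 21.5% of all genes did. In the LEF1 line 6 fell and 2 rose, where 6.05% and 8.32% did. The median changes were -1.47 and -0.11, against -0.02 in the control line. The classes held 8 shared and 8 SNAI1-only genes and 0 LEF1-only genes, and the difference passed for 13, lower in the SNAI1 line for 11. With the control line's change subtracted, 11 fell in the SNAI1 line and 0 passed in the LEF1 line.

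CDH1, which encodes E-cadherin, read 11.33 and 11.43 at 0 h, 9.75 at 72 h and 9.33 and 9.38 at 96 h in the SNAI1 line. In the LEF1 line it read 11.30 and 11.52 at 0 h and 11.42 and 11.53 at 72 h. All 4 of these arrays lay at the level of the SNAI1 line's 0 h arrays, a comparison across the array sets. The change in the SNAI1 line was -1.89 ± 0.18 (SE, adjusted p = 6.93e-05). The LEF1 line's change was 0.06, with a 95% interval of -0.38 to 0.50, and the difference was -1.95 ± 0.26 (SE, adjusted p = 0.00183). EPCAM, an epithelial adhesion molecule, gave -2.31 against 0.41, MARVELD3, a tight junction membrane protein, gave -2.66 ± 0.18 (SE, adjusted p = 1.06e-05) against 0.43 ± 0.19 (SE, adjusted p = 0.173), and CGN, the tight junction linker cingulin, gave -2.29 against 0.26.

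The claudins CLDN1, CLDN3 and CLDN7, which seal tight junctions, fell in both lines. CLDN3, whose promoter is printed above, read 10.26 and 10.01 at 0 h, 4.95 at 72 h and 5.10 and 4.72 at 96 h in the SNAI1 line. CLDN3 values in the LEF1 line were 10.76 and 10.90 at 0 h and 8.86 and 9.07 at 72 h. All end-state arrays lay below their own 0 h arrays, with changes of -5.21 ± 0.18 (SE, adjusted p = 7.72e-07) and -1.87 ± 0.19 (SE, adjusted p = 0.000572) and a difference of -3.34 ± 0.26 (SE, adjusted p = 0.000136). CLDN1 fell, changing by -3.05 and -1.56 and CLDN7 by -2.18 and -0.82, while CLDN2 fell, changing by -4.55 in the SNAI1 line and its change in the LEF1 line, -0.96 ± 0.29 (SE, adjusted p = 0.057), did not pass. GJB2, a gap junction connexin, fell, changing by -5.31 ± 0.25 (SE, adjusted p = 2.22e-06) and -1.22 ± 0.28 (SE, adjusted p = 0.0217), with a difference of -4.10 (adjusted p = 0.000261). GJB2's LEF1 line call was lost without LEF1 0 h replicate 1 (-0.81, adjusted p = 0.0875) or 72 h replicate 2 (-1.04, adjusted p = 0.109). DSP, the desmosomal plaque protein, rose in both lines, by 0.80 and 1.29.

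Of 19 epithelial regulators and keratins, 15 fell and 1 rose in the SNAI1 line, where 19.5% and 21.5% of all genes did. In the LEF1 line 4 fell and 1 rose, where 6.05% and 8.32% did. SNAI1-only genes numbered 9, shared genes 3, and FOXA1 was opposite. CDX1, an intestinal identity factor, read 11.77 and 11.60 at 0 h, 8.26 at 72 h and 7.71 and 7.61 at 96 h in the SNAI1 line. CDX1 values in the LEF1 line were 11.13 and 11.16 at 0 h and 10.32 and 10.45 at 72 h. Its change was -3.83 ± 0.21 (SE, adjusted p = 3.84e-06) against -0.75 ± 0.23 (SE, adjusted p = 0.0603), with a difference of -3.07 ± 0.31 (SE, adjusted p = 0.000426). FOXA2, a pioneer factor of gut endoderm, fell, changing by -3.71 ± 0.23 (SE, adjusted p = 7.86e-06) against -0.41 ± 0.26 (SE, adjusted p = 0.324). FOXA1, its close relative, read 11.05 and 10.85 at 0 h, 9.64 at 72 h and 8.59 and 8.74 at 96 h in the SNAI1 line. FOXA1 values in the LEF1 line were 10.54 and 10.73 at 0 h and 12.22 and 12.19 at 72 h. It fell, changing by -1.96 ± 0.29 (SE, adjusted p = 0.000833) in the first and rose by 1.57 ± 0.32 (SE, adjusted p = 0.013) in the second, so the 2 FOXA genes agreed in the SNAI1 line and parted in the LEF1 line. The LEF1 line's call for FOXA1 was lost without 0 h replicate 1 (1.48, adjusted p = 0.0609) or either 72 h array (1.56, adjusted p = 0.0577, and 1.59, adjusted p = 0.0572).

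Of 16 mesenchymal genes tested, 8 rose and 1 fell in the SNAI1 line, where 21.5% and 19.5% of all genes did. In the LEF1 line 3 rose and 1 fell, where 8.32% and 6.05% did. The difference passed for 7 of the 16, higher in the SNAI1 line for 6. VCAN, a matrix proteoglycan and reported Wnt target, rose in both lines, from 7.24 and 5.24 at 0 h, 12.62 at 72 h and 12.17 and 12.27 at 96 h in the SNAI1 line and 5.65 and 5.84 at 0 h and 9.24 and 9.23 at 72 h in the LEF1 line, by 6.12 ± 0.47 (SE, adjusted p = 2.37e-05) and 3.49 ± 0.51 (SE, adjusted p = 0.00339). The difference in VCAN, 2.63 (adjusted p = 0.0393), lost its call on leaving out any LEF1 line array or any SNAI1 line end-state array (2.50 to 2.72, adjusted p from 0.0666 to 0.1). NRP1, a semaphorin and VEGF co-receptor, rose by 3.53 and 3.92. CDH11, a cadherin of mesenchymal cells, read 6.25 and 6.44 at 0 h, 11.19 at 72 h and 11.21 and 11.14 at 96 h in the SNAI1 line. CDH11 values in the LEF1 line were 5.29 and 5.91 at 0 h and 6.14 and 6.25 at 72 h. It was SNAI1-only, with 4.83 ± 0.20 (SE, adjusted p = 1.49e-06) against 0.60 ± 0.22 (SE, adjusted p = 0.101) and a difference of 4.24 ± 0.29 (SE, adjusted p = 8.62e-05). PRRX1, a mesenchymal homeobox factor, rose at least 3.61-fold in the SNAI1 line (adjusted p = 5.98e-05), and its second probe, which did not pass there, moved by 0.36. FAP, a fibroblast protease in this list, went down in both lines, at least 12.8-fold lower in the SNAI1 line (adjusted p = 5.32e-06) and changing by -1.64 ± 0.24 (SE, adjusted p = 0.00364) in the LEF1 line. VIM, the classical mesenchymal intermediate filament, did not pass in either line (0.06 ± 0.26 (SE, adjusted p = 0.867) and -0.41 ± 0.28 (SE, adjusted p = 0.385)). Its second probe gave 1.38 in the SNAI1 line (adjusted p = 0.0193).

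In the list of invasion, matrix and integrin genes, 12 of 21 rose and 2 fell in the SNAI1 line, where 21.5% and 19.5% of all genes did. In the LEF1 line 2 rose and 1 fell, close to the 8.32% and 6.05% of all genes. The control median was 0.34. ADAM19, a membrane metalloprotease, read 4.69 and 4.84 at 0 h, 8.70 at 72 h and 9.07 and 9.16 at 96 h in the SNAI1 line. ADAM19 values in the LEF1 line were 4.49 and 5.39 at 0 h and 5.90 and 5.51 at 72 h. ADAM19 showed a change of 4.21 ± 0.28 (SE, adjusted p = 1.01e-05) in the SNAI1 line, and its LEF1 line change did not pass (adjusted p = 0.131), with 1 of the 4 arrays above background. MMP16, a membrane-bound matrix metalloprotease, rose at least 14.4-fold in the SNAI1 line (adjusted p = 1.73e-06). In the LEF1 line MMP16 read 4.59 and 4.73 at 0 h and 5.54 and 5.43 at 72 h, above background on 1 of these arrays. The fitted LEF1 line change of 0.82 (adjusted p = 0.0178), by which MMP16 counts as shared, lost its call in 11 of 26 settings, among them without LEF1 0 h replicate 1 (0.76, adjusted p = 0.0732) or either 72 h array (0.77, adjusted p = 0.0773, and 0.88, adjusted p = 0.0564). ITGA5, the alpha chain of the fibronectin receptor, rose at least 6.11-fold in the SNAI1 line (adjusted p = 4.66e-05) and was not above background in the LEF1 line at either time.

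Outside the lists, the SNAI1-only genes with the largest difference were lower. GPX2, a glutathione peroxidase of the gut epithelium, read 12.64 and 12.83 at 0 h, 5.89 at 72 h and 6.33 and 6.43 at 96 h in the SNAI1 line. GPX2 values in the LEF1 line were 12.58 and 12.77 at 0 h and 12.43 and 12.37 at 72 h. The 3 end-state arrays of the SNAI1 line stood apart from all others, with a change of -6.52 ± 0.19 (SE, adjusted p = 3.96e-07), a LEF1 line change of -0.27 (95% interval -0.75 to 0.20) and a difference of -6.25 ± 0.28 (SE, adjusted p = 2.31e-05). SLC27A2, a fatty acid transporter with 2 E-boxes in the printed promoter, read 9.96 and 9.87 at 0 h, 5.27 at 72 h and 4.87 and 4.61 at 96 h in the SNAI1 line. SLC27A2 values in the LEF1 line were 9.75 and 9.61 at 0 h and 10.07 and 9.46 at 72 h. SLC27A2 showed a change of -5.00 ± 0.24 (SE, adjusted p = 2.31e-06) against 0.08 ± 0.26 (SE, adjusted p = 0.87). LRRC26, an auxiliary subunit of the BK potassium channel, and CNTNAP2, a neurexin family member, fell, changing by -4.98 and -5.62 against 0.31 and -0.47. PTGDR, a prostaglandin D2 receptor, fell, changing by -4.27 against 1.25, and the control line also read lower (-1.69 at 72 h and -3.01 at 96 h).

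The SNAI1-only higher genes with the largest difference were LGR6, EFEMP2, LARP6, PTGS2, SP7 and ULBP1. PTGS2, the inducible cyclooxygenase, read 4.30 and 4.61 at 0 h, 9.49 at 72 h and 9.56 and 8.85 at 96 h in the SNAI1 line. PTGS2 values in the LEF1 line were 4.54 and 4.33 at 0 h and 4.54 and 4.72 at 72 h. It was above background only at the SNAI1 line's end state (adjusted p = 2.38e-06), and its second probe rose by 2.88. EFEMP2, an elastic fibre protein, rose at least 23.1-fold (adjusted p = 4.94e-06), LARP6, an RNA-binding protein of collagen mRNAs, at least 28.9-fold (adjusted p = 9.82e-06), and SP7, the osteoblast factor osterix, at least 15.7-fold (adjusted p = 2.22e-06). ULBP1, a stress ligand of the NKG2D receptor, rose by 3.86 ± 0.29 (SE, adjusted p = 2.11e-05), and its LEF1 line change did not pass (adjusted p = 0.207), with neither 72 h array above background.

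Among 24 Notch, BMP and TGF-beta genes, 10 rose and 7 fell in the SNAI1 line, where 21.5% and 19.5% of all genes did, against 4 and 3 in the LEF1 line, where 8.32% and 6.05% did, and 8 were SNAI1-only. The members named here are examples. HES5, a Notch effector, read 7.65 and 7.58 at 0 h, 4.38 at 72 h and 4.59 and 4.59 at 96 h in the SNAI1 line and 7.33 and 7.02 at 0 h and 7.62 and 7.17 at 72 h in the LEF1 line, and fell at least 8.13-fold in the first (adjusted p = 6.35e-06) against 0.22 ± 0.20 (SE, adjusted p = 0.533) in the second. HEY1, another Notch effector, moved in the other direction, reading 4.45 and 5.11 at 0 h, 8.97 at 72 h and 9.22 and 9.17 at 96 h in the SNAI1 line. HEY1 values in the LEF1 line were 4.40 and 4.45 at 0 h and 5.11 and 5.07 at 72 h. HEY1 showed a rise of at least 19.5-fold in the SNAI1 line (adjusted p = 2.22e-06) and was not above background in the LEF1 line at either time. Its second probe, which also passed, rose by less in the SNAI1 line, 1.31 (adjusted p = 0.00282), against -0.29 in the LEF1 line. LFNG, which modifies Notch receptors, fell, changing by -2.39 against 0.34, and JAG1, a Notch ligand, rose by 2.63 against 0.23. TGFB2, a TGF-beta ligand, rose at least 9.09-fold in the SNAI1 line (adjusted p = 9.87e-05), and BAMBI, a decoy receptor and Wnt target, rose by 3.98 and 2.07.

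The LEF1-only genes with the largest difference were DEFA1B, SNAP91, SERPINI1, GZMA, FOXQ1 and RBP2. SERPINI1, the protease inhibitor neuroserpin, read 7.25 and 7.14 at 0 h, 7.57 at 72 h and 7.55 and 8.05 at 96 h in the SNAI1 line. SERPINI1 values in the LEF1 line were 6.65 and 6.80 at 0 h and 11.82 and 11.41 at 72 h. Its rise was 4.89 ± 0.23 (SE, adjusted p = 1.94e-05) in the LEF1 line against 0.53 ± 0.21 (SE, adjusted p = 0.0687), and both of its probes passed in the difference. FOXQ1, a forkhead factor reported as a Wnt target, read 5.89 and 5.80 at 0 h, 5.71 at 72 h and 6.37 and 6.75 at 96 h in the SNAI1 line. FOXQ1 values in the LEF1 line were 6.52 and 5.27 at 0 h and 10.67 and 10.36 at 72 h. FOXQ1 showed a change of 4.62 ± 0.42 (SE, adjusted p = 0.000345) in the LEF1 line against 0.43 ± 0.39 (SE, adjusted p = 0.411) in the SNAI1 line. SNAP91, a clathrin assembly protein of synapses, rose at least 11.3-fold in the LEF1 line (adjusted p = 1.94e-05), GZMA, a granule protease best known from lymphocytes, at least 14.8-fold (adjusted p = 0.000443), and RBP2, the retinol carrier of enterocytes, at least 15.5-fold (adjusted p = 0.00018).

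The Paneth cell defensins DEFA5 and DEFA6 fell in the SNAI1 line, and DEFA5 rose in the LEF1 line. DEFA5 read 8.05 and 9.03 at 0 h, 6.60 at 72 h and 5.95 and 6.06 at 96 h in the SNAI1 line. DEFA5 values in the LEF1 line were 11.22 and 10.81 at 0 h and 14.21 and 14.06 at 72 h. It was opposite, with -2.34 ± 0.31 (SE, adjusted p = 0.000474) and 3.12 ± 0.34 (SE, adjusted p = 0.000748) and a difference of -5.46 ± 0.46 (SE, adjusted p = 0.000183). DEFA6 read 6.71 and 8.95 at 0 h, 4.57 at 72 h and 4.37 and 4.43 at 96 h in the SNAI1 line. DEFA6 values in the LEF1 line were 10.11 and 9.91 at 0 h and 12.09 and 11.34 at 72 h. DEFA6 showed a fall of at least 9.58-fold in the SNAI1 line (adjusted p = 0.00126) and a change of 1.70 ± 0.59 (SE, adjusted p = 0.0898) in the LEF1 line that did not pass. The neutrophil-type DEFA1B, one of a set of near-identical copies, rose by 4.25 ± 0.39 (SE, adjusted p = 0.000345) in the LEF1 line. At 0 h both DEFA5 and DEFA6 already read higher in the LEF1 line, a level set across the 2 array sets.

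The 6 LEF1-only lower genes with the largest difference, COXFA4L2, PCK1, NOSTRIN, RGS10, PRDM8 and MTMR11, all read higher at 72 and 96 h than at 0 h in the control line. COXFA4L2, a hypoxia-induced mitochondrial protein, read 8.34 and 7.22 at 0 h, 8.61 at 72 h and 9.39 and 8.63 at 96 h in the SNAI1 line. COXFA4L2 values in the LEF1 line were 10.52 and 11.54 at 0 h and 5.81 and 7.14 at 72 h. COXFA4L2 showed a change of -4.56 ± 0.55 (SE, adjusted p = 0.00128) in the LEF1 line, while the control line moved by 4.52 at 72 h and 5.19 at 96 h. PCK1, the gluconeogenic carboxykinase, fell, changing by -3.54 ± 0.40 (SE, adjusted p = 0.00095) with a control change of 3.68 at 72 h and 4.35 at 96 h. RGS10, a regulator of G protein signalling, read 9.26 and 9.34 at 0 h, 9.39 at 72 h and 9.37 and 9.10 at 96 h in the SNAI1 line. RGS10 values in the LEF1 line were 9.60 and 9.83 at 0 h and 7.25 and 6.46 at 72 h. RGS10 showed a change of -2.86 ± 0.26 (SE, adjusted p = 0.000331) against -0.01, with a control change of 0.58 at 72 h and 1.05 at 96 h. The second RGS10 probe changed by -1.46 in the LEF1 line (adjusted p = 0.0142), and its difference between the lines did not pass (1.31, adjusted p = 0.066). The 3 others named, NOSTRIN, PRDM8 and MTMR11, fell, changing by -2.15, -2.22 and -2.04.

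Opposite genes included a block of ATF4 targets, which cells induce under amino acid shortage or endoplasmic reticulum stress. Of 23 ATF4 stress response genes tested, 19 rose and 0 fell in the SNAI1 line, where 21.5% and 19.5% of all genes did. In the LEF1 line 2 rose and 11 fell, where 8.32% and 6.05% did. The median changes were 1.14 and -0.77, against 0.32 in the control line, and the difference passed for 18, with the SNAI1 line higher for 17. The opposite genes numbered 11, namely ASNS, ATF3, CEBPB, DDIT3, JDP2, MTHFD2, NUPR1, PHGDH, SHMT2, TRIB3 and VLDLR. With the 72 h array alone as the SNAI1 line's end, 12 rose there and 10 fell in the LEF1 line, and 6 were opposite. With the control line's change subtracted, 5 rose in the SNAI1 line, 1 fell in the LEF1 line and 0 were opposite, and the difference passed for 10.

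DDIT3, which encodes the stress factor CHOP, read 7.37 and 7.89 at 0 h, 10.77 at 72 h and 11.40 and 11.33 at 96 h in the SNAI1 line. DDIT3 values in the LEF1 line were 7.41 and 8.07 at 0 h and 6.39 and 6.56 at 72 h. Its changes were 3.53 ± 0.28 (SE, adjusted p = 2.52e-05) and -1.27 ± 0.30 (SE, adjusted p = 0.0259), with a difference of 4.80 ± 0.41 (SE, adjusted p = 0.000185), and the control line moved by 1.83 at 72 h and 2.28 at 96 h. DDIT3's LEF1 line call was lost without LEF1 0 h replicate 2 (-0.93, adjusted p = 0.113) or either 72 h array (-1.18, adjusted p = 0.101, and -1.35, adjusted p = 0.079). JDP2, a bZIP repressor, rose by 1.91 ± 0.18 (SE, adjusted p = 6.42e-05) in the SNAI1 line and was at least 1.59-fold lower in the LEF1 line (adjusted p = 0.00849), with control changes of 0.23 at 72 h and 0.47 at 96 h. VLDLR, a lipoprotein receptor, rose by 2.18 and was at least 1.68-fold lower (adjusted p = 0.00254). TRIB3, a pseudokinase induced by ATF4, gave 1.14 and -1.69. INHBE, an activin subunit gene, read 7.43 and 7.35 at 0 h, 10.64 at 72 h and 11.21 and 11.38 at 96 h in the SNAI1 line. INHBE values in the LEF1 line were 7.65 and 8.03 at 0 h and 6.05 and 6.15 at 72 h. For INHBE the changes were 3.68 ± 0.23 (SE, adjusted p = 8.1e-06) and -1.74 ± 0.26 (SE, adjusted p = 0.0033). SESN2, a stress-induced inhibitor of mTORC1, was SNAI1-only, with 2.47 ± 0.31 (SE, adjusted p = 0.000375), and was not above background in the LEF1 line.

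SERPINE2, the protease nexin, had the largest difference among the named opposite genes higher in the SNAI1 line. It read 7.35 and 6.46 at 0 h, 12.20 at 72 h and 13.13 and 12.90 at 96 h in the SNAI1 line. SERPINE2 values in the LEF1 line were 7.20 and 7.89 at 0 h and 5.87 and 5.55 at 72 h. For SERPINE2 the changes were 5.83 ± 0.36 (SE, adjusted p = 6.97e-06) and -1.84 ± 0.39 (SE, adjusted p = 0.0168), a difference of 7.67 ± 0.53 (SE, adjusted p = 8.76e-05). The LEF1 line's fall lost its call without LEF1 0 h replicate 2 (-1.49, adjusted p = 0.0799) or either 72 h array (-1.99, adjusted p = 0.0507, and -1.68, adjusted p = 0.0863), in the 27-array fit and with the control line's change subtracted. The control line's change was 0.24 at 72 h and 3.51 at 96 h. LEMD1, a cancer-testis antigen, and NEDD9, an adhesion scaffold, rose in the SNAI1 line (LEMD1 by 1.91, NEDD9 at least 2.93-fold) and were at least 2.29-fold and at least 2.94-fold lower in the LEF1 line, and both also read higher in the control line (1.25 at 72 h and 2.90 at 96 h for LEMD1). LEMD1's LEF1 line call was lost without LEF1 0 h replicate 2 (-1.11, adjusted p = 0.0752) or either 72 h array (-1.51, adjusted p = 0.0998, and -1.93, adjusted p = 0.0564).

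The opposite genes lower in the SNAI1 line were led by KLK4, DEFA5, MYT1, KCNT1, SMOC2 and DMPK. KLK4, a kallikrein protease whose promoter is printed above, read 8.87 and 8.70 at 0 h, 5.11 at 72 h and 6.15 and 5.15 at 96 h in the SNAI1 line. KLK4 values in the LEF1 line were 8.41 and 8.78 at 0 h and 11.98 and 12.35 at 72 h. Both lines began near 1 level and ended far apart, read across the array sets. The changes within the lines were -3.31 ± 0.31 (SE, adjusted p = 7.56e-05) and 3.57 ± 0.34 (SE, adjusted p = 0.000423), with a difference of -6.88 ± 0.47 (SE, adjusted p = 8.26e-05). The control line moved by 0.38 at 72 h and 0.41 at 96 h. KCNT1, a sodium-activated potassium channel, read 8.98 and 9.20 at 0 h, 4.86 at 72 h and 4.56 and 4.90 at 96 h in the SNAI1 line. KCNT1 values in the LEF1 line were 9.44 and 9.84 at 0 h and 11.31 and 11.65 at 72 h. It was at least 19.9-fold lower in the SNAI1 line (adjusted p = 2.08e-06) and higher by 1.84 ± 0.22 (SE, adjusted p = 0.00127) in the LEF1 line. SMOC2, a matricellular protein enriched in crypt stem cells, read 11.20 and 10.75 at 0 h, 7.80 at 72 h and 7.18 and 7.93 at 96 h in the SNAI1 line. SMOC2 values in the LEF1 line were 11.24 and 11.34 at 0 h and 12.89 and 13.30 at 72 h. For SMOC2 the changes were -3.34 ± 0.26 (SE, adjusted p = 2.47e-05) and 1.80 ± 0.28 (SE, adjusted p = 0.00453). MYT1, a neuroendocrine zinc finger factor, was at least 4.05-fold lower (adjusted p = 0.00182) and rose by 2.95, and DMPK, a protein kinase of muscle, gave -1.79 and 2.28. TM7SF2, a sterol reductase, fell, changing by -3.39 ± 0.19 (SE, adjusted p = 4.77e-06) and rose by 0.88 ± 0.21 (SE, adjusted p = 0.0255) and was the 1 gene of its pathway list that rose there. That rise lost its call without LEF1 0 h replicate 1 (0.72, adjusted p = 0.113) or 72 h replicate 2 (0.70, adjusted p = 0.127).

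Of 18 cholesterol synthesis genes, 12 fell and 0 rose in the SNAI1 line, where 19.5% and 21.5% of all genes did. In the LEF1 line 6 fell and 1 rose, where 6.05% and 8.32% did. The list's control median was -0.03. EBP, FDPS, INSIG1 and MVD were shared. MVD, which makes isopentenyl diphosphate, read 8.72 and 8.83 at 0 h, 6.46 at 72 h and 6.42 and 6.51 at 96 h in the SNAI1 line. MVD values in the LEF1 line were 8.45 and 8.58 at 0 h and 6.90 and 7.58 at 72 h. MVD fell, changing by -2.32 ± 0.20 (SE, adjusted p = 4.94e-05) and -1.27 ± 0.22 (SE, adjusted p = 0.0074). INSIG1, the sterol sensor partner, fell, changing by -1.85 ± 0.19 (SE, adjusted p = 0.000104) and -1.13 ± 0.20 (SE, adjusted p = 0.00851). The difference passed for TM7SF2 and for none of the other 17 at an adjusted p of 5%.

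**Figure D3:**
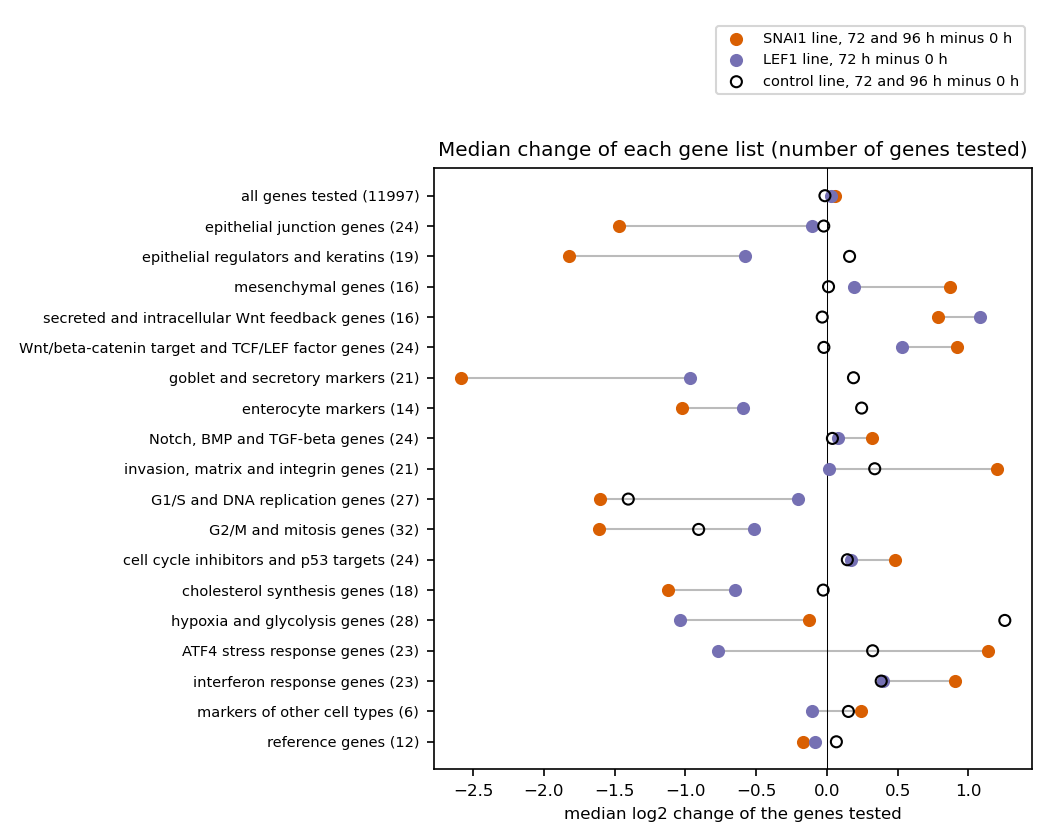
Median log2 change of the tested genes of each list in the SNAI1 line (orange), the LEF1 line (purple) and the control line (open circles), with the number tested in brackets. Goblet markers lie below 0 in both lines (-2.59 and -0.97), Wnt feedback genes above 0 in both (0.78 and 1.08), ATF4 genes on opposite sides (1.14 and -0.77), and G1/S genes lie low in the SNAI1 and control lines (-1.60 and -1.40).

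Of 28 hypoxia and glycolysis genes tested, 17 fell and 0 rose in the LEF1 line, where 6.05% and 8.32% of all genes did. In the SNAI1 line 7 fell and 8 rose, where 19.5% and 21.5% did. The list's medians were -1.04 in the LEF1 line and -0.13 in the SNAI1 line. In the control line all 28 read higher at the end, with a median of 1.26. The LEF1 line's 0 h level was above that of the SNAI1 line for 25 of 28 (median 0.72), and at the end for 10 of 28 (median -0.12), levels that are set across the array sets. BNIP3, a mitophagy receptor induced by hypoxia, read 10.78 and 10.60 at 0 h, 10.77 at 72 h and 10.91 and 10.74 at 96 h in the SNAI1 line and 12.33 and 12.27 at 0 h and 10.69 and 10.49 at 72 h in the LEF1 line, so the lines ended at 1 level from different starts. Its changes were 0.12 ± 0.15 (SE, adjusted p = 0.559) and -1.71 ± 0.17 (SE, adjusted p = 0.000425), while the control line gave 2.15 at 72 h and 2.01 at 96 h.

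DDIT4, an mTORC1 inhibitor, read 11.32 and 11.36 at 0 h, 12.03 at 72 h and 12.50 and 12.45 at 96 h in the SNAI1 line. DDIT4 values in the LEF1 line were 12.17 and 12.56 at 0 h and 9.13 and 9.79 at 72 h. For DDIT4 the changes were 0.98 ± 0.24 (SE, adjusted p = 0.0113) and -2.91 ± 0.26 (SE, adjusted p = 0.000336). NDRG1, a hypoxia-induced gene, read 8.53 and 8.32 at 0 h, 9.50 at 72 h and 10.48 and 10.20 at 96 h in the SNAI1 line. NDRG1 values in the LEF1 line were 11.13 and 12.01 at 0 h and 8.97 and 9.45 at 72 h. For NDRG1 the changes were 1.64 ± 0.34 (SE, adjusted p = 0.00516) and -2.36 ± 0.37 (SE, adjusted p = 0.00486). The control line's changes, against its 0 h array of the same set, were larger than those of the SNAI1 line. They were 2.16 at 72 h and 1.99 at 96 h for DDIT4 and 3.62 at 72 h and 3.49 at 96 h for NDRG1. The subtraction took the mean of both control 0 h arrays as its start, so the values subtracted were not these. In it the SNAI1 line's change turned sign for both genes (-0.20 and -0.22, neither past 5%). STC2, a secreted glycoprotein in this list, gave 2.25 ± 0.27 (SE, adjusted p = 0.000264) and -1.25 ± 0.29 (SE, adjusted p = 0.0244) with a control change of 0.03 at 72 h and 1.03 at 96 h. STC2's LEF1 line call was lost without LEF1 0 h replicate 2 (-1.04, adjusted p = 0.104) or either 72 h array (-1.07, adjusted p = 0.11, and -1.44, adjusted p = 0.0552). DDIT4's SNAI1 line call was lost without either of its 0 h arrays (0.96, adjusted p = 0.0681, and 1.00, adjusted p = 0.0589).

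**Figure D4:**
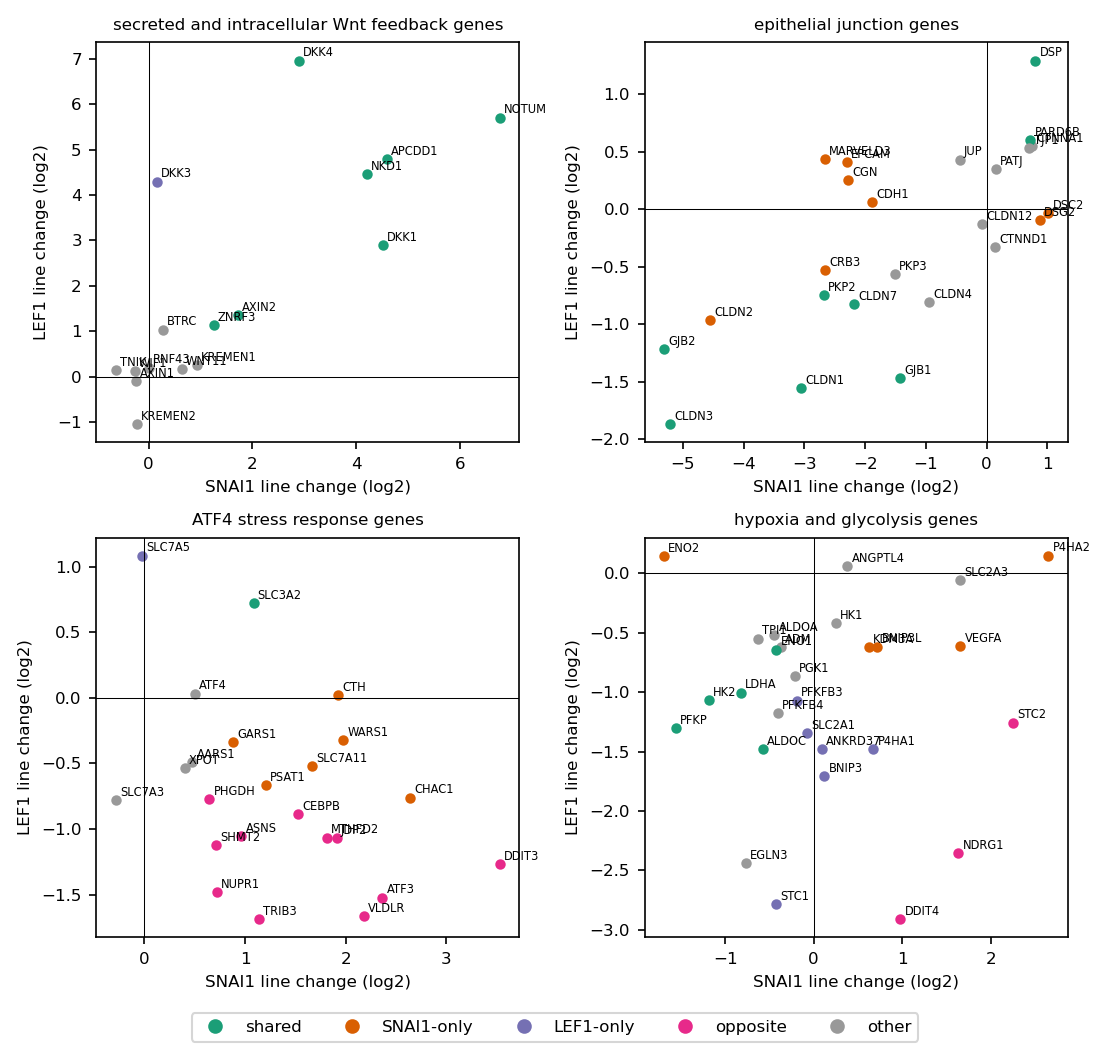
Each panel plots the tested members of 1 list, with the SNAI1 line's change on the horizontal and the LEF1 line's change on the vertical axis (log2), coloured by class. Wnt feedback genes spread to the upper right up to NOTUM (6.78 and 5.71), junction genes spread leftwards with 8 shared and 8 SNAI1-only, 11 ATF4 genes lie in the lower right as opposite genes, and hypoxia genes lie mostly below 0 in the LEF1 line.

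Of 27 G1/S and DNA replication genes, 25 fell in the SNAI1 line (median -1.60), where 19.5% of all genes fell. In the LEF1 line 0 passed (median -0.20), and 18 were SNAI1-only. All 27 read lower in the control line, with medians of -0.91 at 72 h and -1.89 at 96 h. MCM4, a subunit of the replicative helicase, read 10.59 and 10.40 at 0 h, 8.33 at 72 h and 8.48 and 8.43 at 96 h in the SNAI1 line. MCM4 values in the LEF1 line were 9.49 and 9.21 at 0 h and 9.12 and 9.09 at 72 h. MCM4 showed a change of -2.08 ± 0.16 (SE, adjusted p = 2.09e-05) against -0.25 ± 0.17 (SE, adjusted p = 0.38), while the control line moved by -0.91 at 72 h and -2.26 at 96 h. GINS2, of the same helicase complex, and CDC25A, a cyclin-dependent kinase phosphatase, fell, changing by -2.27 and -2.17 against -0.14 and 0.11. With the control line's change subtracted, 0 of the 27 passed in either line or in the difference by limma. In every alternative fit, this one included, the SNAI1 line's change stayed at or below -1.14 for MCM4, -1.08 for GINS2 and -1.13 for CDC25A. That fit took the mean of both control 0 h arrays, of both array sets, as its start, so the values subtracted were not those above. Against the 0 h array of the same set, the list's control median was -1.40. What remained beyond the control line's change was not tested with that start.

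Of 32 G2/M and mitosis genes, 24 fell in the SNAI1 line, where 19.5% of all genes fell. In the LEF1 line 0 passed, where 8.32% of all genes rose and 6.05% fell. The difference, negative for 7.04% of all genes, passed for 1, ECT2, a cytokinesis exchange factor (-2.10 ± 0.30 (SE, adjusted p = 0.000764) against -0.16 ± 0.33 (SE, adjusted p = 0.796)). ECT2's difference lost its call on leaving out any of 6 of the 9 arrays (-1.82 to -2.03, adjusted p from 0.0562 to 0.0871). The median was -0.53 at 72 h and -2.14 at 96 h in the SNAI1 line, and -0.10 and -1.68 in the control line. With the 72 h array alone, 4 fell in the SNAI1 line and 3 in the LEF1 line. MKI67 gave -1.34 ± 0.19 (SE, adjusted p = 0.000682) in the SNAI1 line and was not above background in the LEF1 line, and CCNA2, cyclin A, gave -2.58 against -0.69, with no difference past 5% (adjusted p = 0.0847 and adjusted p = 0.171). CDKN1A, the p21 inhibitor, did not pass (0.40 ± 0.16 (SE, adjusted p = 0.0777) and -0.13 ± 0.18 (SE, adjusted p = 0.68)). Among 24 genes of cell cycle inhibition and the p53 response, 10 rose in the SNAI1 line, where 21.5% of all genes rose. In the LEF1 line 2 rose, close to the 8.32% of all genes. SERTAD1, a regulator of E2F, and GADD45B, a stress-induced gene, were SNAI1-only (1.49 and 1.16 against 0.19 and -0.85), and TP53INP1, a p53 target, was shared (2.47 and 1.95).

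Interferon response genes held 7 shared members of 23 tested, with a control median of 0.38. In the SNAI1 line 14 rose and 5 fell, where 21.5% and 19.5% of all genes did. In the LEF1 line 7 rose and 2 fell, where 8.32% and 6.05% did. IFI6, an interferon-induced mitochondrial protein, rose by 3.03 and 2.78. IFITM1, a membrane restriction factor, was opposite, reading 11.25 and 11.13 at 0 h, 12.34 at 72 h and 12.16 and 12.05 at 96 h in the SNAI1 line. IFITM1 values in the LEF1 line were 10.98 and 11.02 at 0 h and 9.82 and 9.57 at 72 h. For IFITM1 the changes were 1.00 ± 0.16 (SE, adjusted p = 0.00132) and -1.30 ± 0.18 (SE, adjusted p = 0.00222), whereas its neighbour IFITM2 was SNAI1-only (1.00 against 0.03). IFITM2's difference lost its call on leaving out any of 5 of the 9 arrays (0.83 to 0.98, adjusted p from 0.0557 to 0.0845). IFI35 was LEF1-only, with 0.15 ± 0.17 (SE, adjusted p = 0.539) and -1.32 ± 0.19 (SE, adjusted p = 0.00294). With the control line's change subtracted, 0 of the 23 were shared.

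Of 12 reference genes, 1 rose and 3 fell in the SNAI1 line, where 21.5% and 19.5% of all genes did. In the LEF1 line 2 fell, where 6.05% of all genes did. ACTB changed by 0.01 and -0.09 and GAPDH by -0.02 and -0.35, none past 5%. SDHA, a subunit of succinate dehydrogenase, was SNAI1-only (-1.63 ± 0.17 (SE, adjusted p = 0.000138) against -0.08 ± 0.19 (SE, adjusted p = 0.821)), and so was the transferrin receptor TFRC (-0.96 ± 0.16 (SE, adjusted p = 0.00145) against -0.07 ± 0.17 (SE, adjusted p = 0.836)), whose sign turned when the control line's change was subtracted (0.34, adjusted p = 0.611). TFRC's difference lost its call on leaving out any of 8 of the 9 arrays (-0.71 to -0.94, adjusted p from 0.0579 to 0.132). B2M, the light chain of MHC class I, rose by 0.90 in the SNAI1 line against 0.60, a difference of 0.29 that did not pass.

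The SNAI1 line's end state mixes 72 and 96 h while the LEF1 line's is 72 h. With the single 72 h array alone in the SNAI1 line, the counts were 579 shared, 449 SNAI1-only, 107 LEF1-only and 55 opposite genes. With the change of the control line subtracted, they were 225, 449, 84 and 12. That change rests on single control arrays at each late time and on control 0 h arrays of both array sets. Of the named genes, 18 of 28 shared, 26 of 35 SNAI1-only, 12 of 17 LEF1-only and 4 of 19 opposite genes kept their class then, the 4 being DEFA5, FOXA1, KCNT1 and KLK4.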

How the data were processed

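Per the labels' protocols, total RNA was isolated with the PeqGOLD kit and labelled with biotin as cRNA (Ambion MessageAmp) for Illumina arrays. The authors deposited log2 intensities that had not been normalized, each beside a detection p-value (named so per the file headers). That the scale is log2 follows from the range of the values. How the scanner output was summarised and corrected is not stated. A value table deposited by the authors, also log2, served as an alternative.

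All 27 arrays were background corrected and quantile normalized together with neqc (limma 3.58.1, R 4.3.3, offset 16). The table holds 47323 probes, and 32 of them lacked a finite value and were left out. Of the rest 30092 carry 1 gene symbol in GEO's platform annotation, 8 several and 17191 none, and symbols were updated through RefSeq gene IDs. A probe was kept if detected at p under 0.01 on 2 or more of the 9 arrays (21214 probes). Each gene was read from its brightest probe by mean level, giving 11997 genes. The filter was set on the arrays compared, so a gene can pass through its high group alone. A limma model with 4 group means gave both changes and their difference, two-sided, adjusted by Benjamini and Hochberg's method over all 11997 genes at 5%, with 5 residual and 3.74 prior degrees of freedom. Errors are standard errors. Pairs of arrays of 1 group correlated at 0.976 to 0.99 across genes. The number of arrays limits the precision.

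For a group in which every array missed the probe, a fold is a lower bound against the higher, per array, of the lowest detected signal and the probe's own. The lowest detected signal was 4.55 to 4.59 on the SNAI1 line's 5 arrays and 5.45 to 5.68 on the LEF1 line's 4. Bounds of the 2 lines therefore rest on unequal floors and are not to be compared in size. Another probe of the gene passed in the other direction for 11 genes, none of them named.

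The comparison, the members of the 18 lists and the named genes' rule were chosen with earlier results of these data known. The rule takes per class and direction up to 6 genes by size (the smaller change for shared and opposite genes, the difference for the others), up to 3 members per list by adjusted p, and LEF1, SNAI1, CDH1, EPHB3, AXIN2, MYC, VIM, ZEB1, CDKN1A, NOTUM, APCDD1 and VCAN. Other list members were named as examples after their values were seen. The steps were tested on simulated data. Alternatives covered normalization, background, filters, probe choice, variance model, arrays in the fit, replicate block, end times, the control line, thresholds and single arrays left out.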

Additional observations from a re-analysis of the deposited data

Results flagged for a closer look

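The change from 0 h to the end state differed between the lines, by the limma test of the difference itself, for 1612 genes, and for each gene given here. Values are the SNAI1 line's change minus the LEF1 line's change on the log2 scale. The lines lie in different array sets, and the SNAI1 line's end state includes 96 h, so line, set and time cannot be told apart. Where a probe was not above background in a group, the fitted difference is no bound. No group held the 4 or more arrays that a check for a single outlying array needs.

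Among shared genes the difference was positive for MMP16 (3.03), VCAN (2.63), DKK1 (1.62) and LEF1 (1.21). The calls for VCAN and LEF1 ended in 11 and 10 of 25 settings, with differences of 1.63 to 3.63 and 0.97 to 1.75. Those for TFRC, ECT2, IFITM2, DKK4, GCNT3 and ATOH1, given next, also ended in the absence of single arrays. In the same class it was negative for GJB2 (-4.10), DKK4 (-4.07), CLDN3 (-3.34), ST6GALNAC1 (-3.02), VIL1 (-2.85), FAP (-2.20), GCNT3 (-1.66) and ATOH1 (-1.58). Among SNAI1-only genes the difference was positive for LGR6 (5.89), EFEMP2 (4.74), LARP6 (4.69), PTGS2 (4.65), SP7 (4.55), ULBP1 (4.52), CDH11 (4.24), HEY1 (3.67), ADAM19 (3.45), SESN2 (2.71), GADD45B (2.01), PRRX1 (1.68), SERTAD1 (1.30) and IFITM2 (0.97). In the same class it was negative for GPX2 (-6.25), PTGDR (-5.52), LRRC26 (-5.29), CNTNAP2 (-5.16), SLC27A2 (-5.08), DEFA6 (-5.07), EPHB3 (-3.77), HES5 (-3.31), FOXA2 (-3.30), MARVELD3 (-3.09), CDX1 (-3.07), LFNG (-2.73), PLS1 (-2.70), DLL1 (-2.58), CDC25A (-2.28), GINS2 (-2.12), CDH1 (-1.95), ECT2 (-1.94), MCM4 (-1.84), SDHA (-1.55) and TFRC (-0.89). Among LEF1-only genes the difference was positive for COXFA4L2 (5.66), PCK1 (3.45), RGS10 (2.84), NOSTRIN (2.71), PRDM8 (2.67), MTMR11 (2.60), BNIP3 (1.83) and IFI35 (1.46). In the same class it was negative for DEFA1B (-4.97), SNAP91 (-4.61), SERPINI1 (-4.36), GZMA (-4.33), FOXQ1 (-4.19), RBP2 (-4.17), DKK3 (-4.14), PROX1 (-3.93) and CA4 (-2.10). Among opposite genes the difference was positive for SERPINE2 (7.67), INHBE (5.42), DDIT3 (4.80), NDRG1 (3.99), DDIT4 (3.89), VLDLR (3.84), LEMD1 (3.63), STC2 (3.51), NEDD9 (3.50), JDP2 (2.98) and IFITM1 (2.30). In the same class it was negative for KLK4 (-6.88), KCNT1 (-6.16), DEFA5 (-5.46), SMOC2 (-5.14), MYT1 (-5.07), TM7SF2 (-4.28), DMPK (-4.06) and FOXA1 (-3.53).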

How the results depend on the processing

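Main counts were 4922 (SNAI1 line), 1724 (LEF1 line), 1612 (difference), 1105 shared, 1061 SNAI1-only, 184 LEF1-only and 130 opposite, and the values here follow that order. All 7 stayed within 1.5 times under 12 settings: neqc on the 9 arrays or per line, the authors' value table, no background correction, an offset of 50, the 3 other filters on dim probes, the mean of all probes, a trended robust variance, the 18-array fit and the 96 h arrays alone (which is the fit without SNAI1 72 h replicate 1). The replicate block and the fits without SNAI1 96 h replicate 1, SNAI1 96 h replicate 2 or LEF1 0 h replicate 2 also kept all 7 within it, and each of the other settings moved at least 1. With the SNAI1 line's 72 h array alone they were 2365, 1130, 686, 579, 449, 107 and 55. With the control line's change subtracted they were 1835, 386, 664, 225, 449, 84 and 12. This fit draws on single control arrays at 72 and 96 h and on control 0 h arrays of both array sets. At 1% in place of 5% they were 3063, 626, 743, 369, 555, 89 and 38. With a 2-fold minimum added, 2576 and 971 passed in the lines, 520 were shared and 59 opposite. In the 27-array fit 80 were opposite. With each line fitted alone, 482 passed in the LEF1 line, 326 were shared and 49 opposite, so the LEF1 line's counts lean on a spread shared with the SNAI1 line.

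Leaving out each array in turn gave 3073 to 5165, 909 to 1715, 920 to 1726, 609 to 1070, 602 to 1149, 115 to 182 and 74 to 133. The SNAI1 line's count fell most without either of its 0 h arrays (3073 and 3132), and the LEF1 line's without either 72 h array (982 and 909) or 0 h replicate 1 (1107). Replicate numbers recur at 0 h and at the end, but with 2 numbers per line they share only a number: deviations of same-numbered arrays correlated at 0.0731 in the SNAI1 line and 0.511 in the LEF1 line, and the replicate block gave 5645, 2267, 2006, 1443, 1263, 234 and 190. Of the named genes' values past 5% in the setting or as reported, 4 turned sign with the control line subtracted, namely the SNAI1 line's change of DDIT4 (-0.20), NDRG1 (-0.22) and TFRC (0.34) and the difference of TFRC (0.62), and 1 without LEF1 72 h replicate 2, the difference of FRG2B (-1.11, and 1.78 without replicate 1). Of the 80 named values not past 5%, 39 had another sign under at least 1 setting (17 with the control line subtracted). Across all settings 195 of the named genes' tests lost their call (73 results), 67 gained one (19 results) and 7711 kept both. The causes were not tested. Signal limits the dim side: bounds stand for 1146 changes in the SNAI1 line and 607 in the LEF1 line.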
